A study of Saccharomyces cerevisiae with 9 samples.

Results

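The values reported here are the mRNA levels of a pair of adjacent yeast reading frames, BSC1 (YDL037C) and PRM7 (YDL039C), and of 6 genes of the filamentous growth and mating pathways, PGU1 (YJR153W), TEC1 (YBR083W), KSS1 (YGR040W), MSB2 (YGR014W), FLO10 (YKR102W) and FUS1 (YCL027W). A list of 9 loci was looked up in a table of 6952 transcript entries, and 8 of the 9 had an entry. The remaining locus, YDL038C, which RefSeq gives as a synonym of PRM7, was not analysed separately. The list was chosen by values of these same libraries, the low levels of BSC1, PRM7 and PGU1 in pbp1Δ against WT, to which other genes of the pathway were added. Members' values in that comparison, and in the comparison of pab1Δpbp1Δ with WT, are therefore given as a description without a test. The members were tested in pab1Δpbp1Δ against pbp1Δ, which uses the same pbp1Δ libraries. RNA-Seq was performed on 9 libraries, 3 each of pab1Δpbp1Δ cells (pbp1::URA3 and pab1::kanMX), pbp1Δ cells (pbp1::URA3) and WT cells. By the strain list of the study, all 3 strains are MATa haploids of the W303 background, with the ade2-1, can1-100, his3-11,15, trp1-1 and ura3-1 alleles and a leu2 allele, and grew in YEPD, a rich glucose medium, at 30 °C. PAB1 encodes the cytoplasmic poly(A)-binding protein and is essential unless a suppressor such as the loss of PBP1 is present, so the double mutant always lacks both genes and pbp1Δ is its PAB1 control. The methods of the study describe the replicates of the mutants as separate isolates, the pab1Δpbp1Δ isolates all made from 1 pbp1Δ clone, and those of WT as technical replicates, although the study elsewhere calls the replicates of every strain biological. Differences from WT may therefore be set against technical spread alone in WT.

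Filamentous growth is a program in which yeast cells elongate, stay attached and invade their substrate. A mucin-like membrane protein, Msb2, acts at the head of a MAP kinase cascade (Ste20, Ste11, Ste7) that ends in the kinase Kss1, and Kss1 acts on the transcription factors Ste12 and Tec1. Among the outputs are PGU1, which encodes a secreted polygalacturonase that cuts pectin, and cell-surface flocculins such as FLO10. Mating pheromone acts through many of the same kinases and through the kinase Fus3, and induces FUS1, a membrane protein needed for cell fusion. PRM7 was named as a pheromone-regulated gene, and BSC1 belongs to a group of genes named for possible bypass of a stop codon. RefSeq notes that in W303 BSC1, the gap after it and PRM7 form 1 continuous gene, IMI1.

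Both frames lie on the minus strand of chromosome IV of the R64 reference, a genome of another strain background (S288C), with BSC1 upstream at chrIV:384601-385587 and PRM7 downstream at chrIV:381985-384081. The gap between them is 519 bases, or 173 codons, and PRM7 starts in the frame of BSC1. Read from the BSC1 start codon to the end of PRM7, this frame has 1201 codons and 1 stop codon before its last, at codon 329, while the other frames of the same strand hold 56 and 99. That inner stop is the TAA that ends BSC1, and the PRM7 start codon is codon 503. The bases around both are shown because they are what separates the 2 entries in the reference, with the stop or start codon in capitals (RefSeq, R64, minus strand, chrIV:384571-384633 and chrIV:384049-384111). The W303 sequence was not used here.
BSC1 end: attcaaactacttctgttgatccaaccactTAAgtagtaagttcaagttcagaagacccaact
PRM7 start: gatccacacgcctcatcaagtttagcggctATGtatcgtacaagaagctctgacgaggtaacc

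Tec1 binds the TCS element, searched here as CATTCC or CATTCT, and Ste12 binds the pheromone response element (PRE), searched as TGAAACA, both on either strand of the 500 bases before each start codon. A TCS was found before 41.3% and a PRE before 12% of 6019 yeast genes, and both before 5.35%. Of the 8 members 5 had a TCS, 3 had a PRE and 2 had both. PGU1 had 3 TCS matches, TEC1 had 2 TCS and 3 PRE matches, FUS1 had 2 PRE matches, MSB2 had 1 of each, and KSS1 and FLO10 had 1 TCS each. BSC1 and PRM7 had neither, and the window of PRM7 lies within the gap described above. No TCS match overlapped a PRE match. The stretches with most of the matches are printed for the genes with more than 1 match of a motif, plus strand of R64 from RefSeq, with matches in capitals. They lie upstream of the start codons of PGU1 (chrX:722605-722734), TEC1 (chrII:408724-408790) and FUS1 (chrIII:71608-71657). AGAATG and GGAATG are TCS matches, and TGTTTCA is a PRE match, read on the opposite strand. A match is a string of letters and not a shown site of binding.
PGU1: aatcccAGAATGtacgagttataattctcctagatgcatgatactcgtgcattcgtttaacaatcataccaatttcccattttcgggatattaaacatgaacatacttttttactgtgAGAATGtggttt
TEC1: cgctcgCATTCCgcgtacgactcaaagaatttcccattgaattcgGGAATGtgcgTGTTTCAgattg
FUS1: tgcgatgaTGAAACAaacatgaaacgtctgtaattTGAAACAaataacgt

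Summed over all entries, a library held 73062345 to 100361368 expected counts. PAB1 had 50, 26 and 22 counts in the pab1Δpbp1Δ libraries, against 108388 to 142056 in pbp1Δ and 121964 to 144249 in WT. PBP1 had 117 to 143 counts in pab1Δpbp1Δ and 66 to 118 in pbp1Δ, against 22789 to 26638 in WT, so every library matched its label. Levels within a gene are given as CPM, read counts scaled to library size with TMM factors, and levels between genes as FPKM, which also divides by transcript length. A change was called by edgeR's quasi-likelihood test at a Benjamini-Hochberg adjusted p-value under 0.01. RNA-Seq of a culture cannot tell fewer cells expressing a gene from less RNA per cell.

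BSC1 and PRM7 were lower in pab1Δpbp1Δ than in pbp1Δ, and both were lower in each mutant than in WT. FLO10, the flocculin gene, was the member higher in pab1Δpbp1Δ than in pbp1Δ. Of the 8 members 2 fell, 1 rose and 5 did not pass the threshold in that comparison, which is close to the background, since 34.8% of all 6573 entries tested were called (18.0% higher and 16.7% lower in pab1Δpbp1Δ). That even split of 1185 higher and 1100 lower depends on the scaling, since upper-quartile scaling called 1682 higher and 663 lower, with the same number of members (3). All 8 members passed the filter on low counts in each comparison. The median log2 fold change of the members was -0.37, and that of all entries tested was 0.03.

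**Figure D1:**
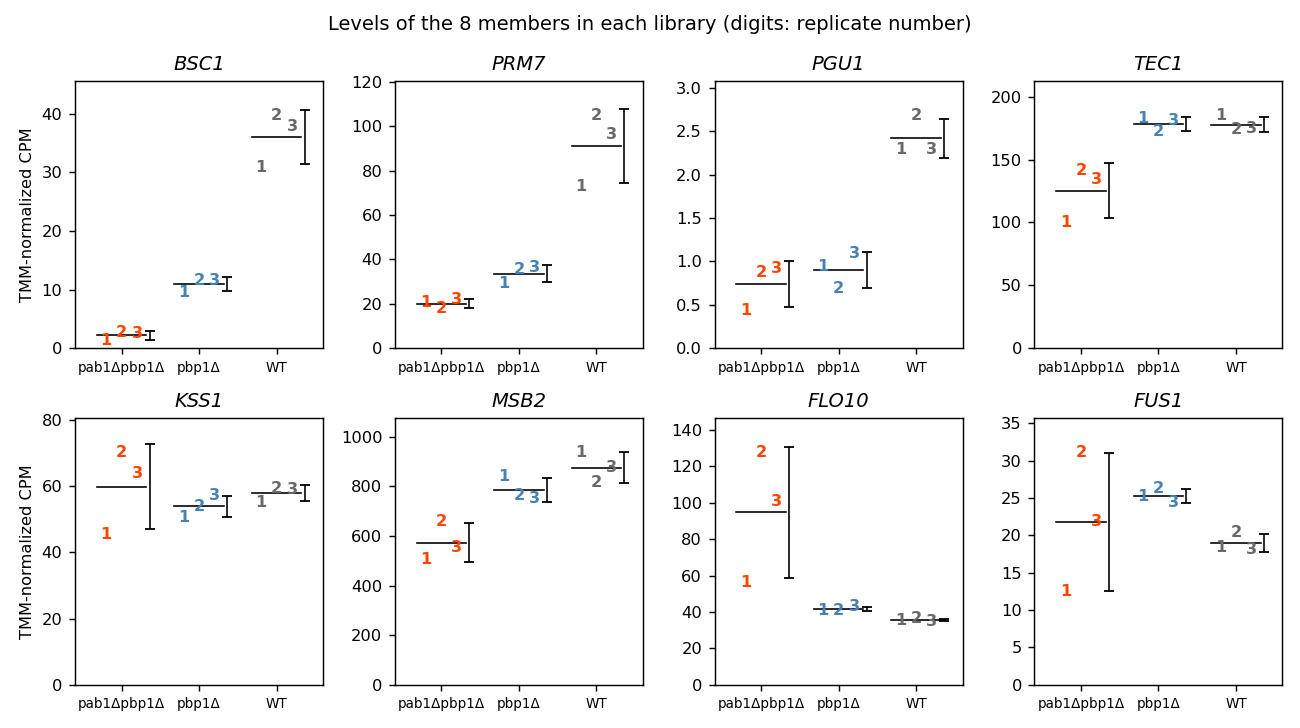
TMM-normalized CPM of the 8 members in each library, in one panel a gene on a linear axis from 0. Digits mark the replicates, horizontal lines the mean and vertical bars ± 1 SD (n = 3). BSC1 and PRM7 are lowest in pab1Δpbp1Δ, higher in pbp1Δ and highest in WT without overlap, PGU1 is low in both mutants, and FLO10 is spread between 56.1 and 127.5 CPM in pab1Δpbp1Δ.

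BSC1, the upstream part of the locus, had 1.22, 2.75 and 2.54 CPM in pab1Δpbp1Δ replicates 1, 2 and 3, against 9.51, 11.5 and 11.6 CPM in pbp1Δ and 30.9, 39.7 and 37.8 CPM in WT. The 3 strains did not overlap, and the highest pab1Δpbp1Δ library was under the lowest pbp1Δ library. BSC1 fell by 2.33 ± 0.30 on the log2 scale (± SE), or 5.01-fold, in pab1Δpbp1Δ against pbp1Δ (edgeR adjusted p = 7.17e-04). Set against WT, its log2 fold change was -4.07 ± 0.31 in pab1Δpbp1Δ, or 16.8-fold lower, and -1.73 ± 0.10 in pbp1Δ. The counts behind the pab1Δpbp1Δ values were 122, 265 and 247, so the low level was not at the limit of detection.

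PRM7, the downstream part, had 20.5, 18.1 and 21.8 CPM in pab1Δpbp1Δ, against 29.0, 35.2 and 36.6 CPM in pbp1Δ and 72.7, 104.7 and 96.5 CPM in WT. These strains did not overlap either. PRM7 fell by 0.74 ± 0.13 on the log2 scale, or 1.67-fold, in pab1Δpbp1Δ against pbp1Δ (edgeR adjusted p = 0.00247), and this call was lost without pbp1Δ replicate 2 (adjusted p = 0.0166) or replicate 3 (adjusted p = 0.016). Against WT its log2 fold change was -2.20 ± 0.16 in pab1Δpbp1Δ and -1.44 ± 0.15 in pbp1Δ. WT replicate 1 was the lowest WT library for both frames.

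Whether the 2 frames kept 1 ratio in all libraries was examined with FPKM, which divides by transcript length. The BSC1 to PRM7 ratio was 0.122, 0.312 and 0.239 in pab1Δpbp1Δ replicates 1, 2 and 3, against 0.671, 0.670 and 0.650 in pbp1Δ and 0.872, 0.776 and 0.802 in WT. Fewer reads per base were thus assigned to the upstream frame in all 9 libraries, and the strains did not overlap. The reads came from W303 and were aligned to entries based on R64, so the distance of the ratio from 1 may depend on that reference. This was not tested. The log2 ratio was -2.26 ± 0.70 in pab1Δpbp1Δ and -0.59 ± 0.03 in pbp1Δ (SD, n = 3 each), a difference of -1.67 or 3.18-fold. That difference had an exact two-sided permutation p of 0.1, which is the smallest that 3 against 3 libraries allow, so it cannot pass 0.05. The log2 ratio was -0.29 ± 0.09 in WT, from which pab1Δpbp1Δ differed by -1.97 and pbp1Δ by -0.30, given without a test. Leaving out pab1Δpbp1Δ replicate 1, the library with the lowest ratio, gave -1.28 against pbp1Δ.

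**Figure D2:**
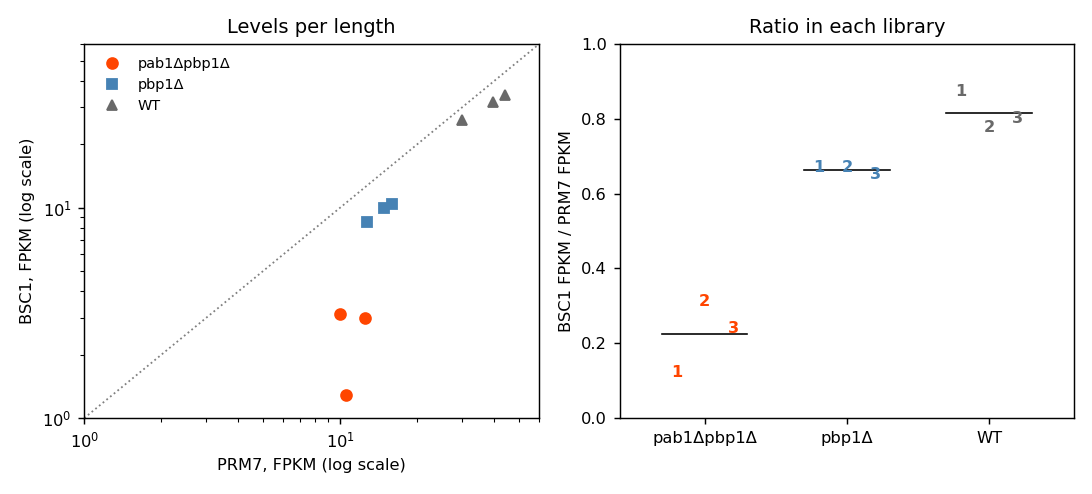
Left, BSC1 FPKM against PRM7 FPKM in the 9 libraries on log axes, with a dotted line at equal levels. Right, the BSC1 to PRM7 ratio by strain, with digits for replicates and lines for means. All points lie under the line of equal levels, and the pab1Δpbp1Δ ratios (0.122 to 0.312) lie below those of pbp1Δ (0.650 to 0.671) and WT (0.776 to 0.872).

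In the deposited table the effective lengths implied by the counts and FPKM were 1058 bases for BSC1 and 2168 for PRM7, close to the 987 and 2097 bases of the frames themselves, so most of the gap between them is in neither entry. Windows of 75 bases were searched for exact repeats in the R64 genome, and the protein-coding genes that hold them were listed. None of the 2023 windows of PRM7 recurred, while 110 of 913 windows of BSC1 (12%) and 311 of 3436 windows of FLO10 (9.05%) did. No other protein-coding gene held these windows. Inexact copies were not searched for, so shared reads were not fully tested. The other 5 members had no recurring window.

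The genes on either side of the locus, 3 in each direction, were compared next. NAT1, a subunit of the main N-terminal acetyltransferase and the next gene downstream, had 178.6, 159.7 and 159.0 CPM in pab1Δpbp1Δ, against 289.8, 339.5 and 319.9 CPM in pbp1Δ and 298.1, 303.7 and 326.4 CPM in WT. It fell by 0.93 ± 0.11 on the log2 scale in pab1Δpbp1Δ against pbp1Δ (edgeR adjusted p = 5.07e-04), with a log2 fold change of 0.04 ± 0.07 in pbp1Δ against WT (adjusted p = 0.730). NAT1 libraries of pbp1Δ and WT overlapped. PUS9, a pseudouridine synthase gene and the next gene upstream, fell by 0.46 ± 0.09 in the first comparison (adjusted p = 0.00384; not called without pab1Δpbp1Δ replicate 3, without any 1 pbp1Δ replicate or under upper-quartile scaling) and had a log2 fold change of -0.15 ± 0.05 in the second (adjusted p = 0.0378). SIR2, the histone deacetylase gene of silent chromatin, fell by 0.95 ± 0.09 and by 0.28 ± 0.04 (adjusted p = 2.49e-04 and 0.0014, the second call being lost with all 9 libraries in 1 edgeR fit). GPR1, a glucose-sensing receptor gene that is also a regulator of filamentous growth, had log2 fold changes of 0.07 ± 0.14 and 0.00 ± 0.05 with no call. The 2 remaining neighbours, YDL041W and YDL034W, lie opposite SIR2 and GPR1 and stayed under 1 CPM in every library. Thus 3 of 6 neighbours fell in pab1Δpbp1Δ against pbp1Δ, where 16.7% of all entries were called lower. In pbp1Δ against WT 1 of the 5 tested fell, where 6.24% of all entries were called lower. With so few genes, a change particular to this region was not tested.

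**Figure D3:**
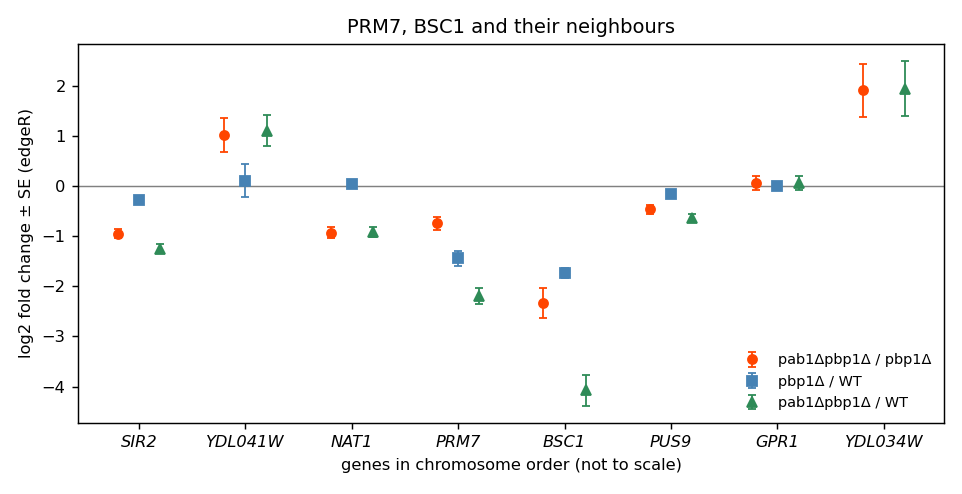
Log2 fold changes ± SE (edgeR) of PRM7, BSC1 and 3 neighbours on each side, in chromosome order and not to scale, for the 3 comparisons. In pab1Δpbp1Δ against pbp1Δ PRM7 lies at -0.74 and BSC1 at -2.33, and SIR2, NAT1 and PUS9 lie between -0.95 and -0.46. In pbp1Δ against WT, by which the locus was chosen, its values are a description.

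Among the targets of the pathway, PGU1 was near the limit of the data. It had 0.431, 0.872 and 0.915 CPM in pab1Δpbp1Δ, against 0.935, 0.683 and 1.09 CPM in pbp1Δ and 2.28, 2.68 and 2.29 CPM in WT. The mutants overlapped each other and lay below WT, and their libraries held 43 to 89 counts in pab1Δpbp1Δ and 57 to 89 in pbp1Δ, against 149 to 214 in WT. The log2 fold change was -0.29 ± 0.35 in pab1Δpbp1Δ against pbp1Δ (edgeR adjusted p = 0.506), so no difference was called. Set against WT, it was -1.72 ± 0.31 in pab1Δpbp1Δ and -1.42 ± 0.18 in pbp1Δ, or 3.30-fold and 2.68-fold lower in these mutants.

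FLO10 had 56.1, 127.5 and 100.5 CPM in pab1Δpbp1Δ, against 41.0, 40.9 and 42.8 CPM in pbp1Δ and 35.3, 36.3 and 35.0 CPM in WT. Every pab1Δpbp1Δ library was above every other library, and replicates 1 and 2 differed more from each other than pbp1Δ did from WT. FLO10 rose by 1.19 ± 0.26 on the log2 scale, or 2.28-fold, in pab1Δpbp1Δ against pbp1Δ (edgeR adjusted p = 0.00605). The call held in 1 of the 6 fits that leave out 1 library, the one without pab1Δpbp1Δ replicate 1 (1.45). It was lost without pab1Δpbp1Δ replicate 2 (0.91, adjusted p = 0.0116) or 3 (1.14, 0.0253), or without pbp1Δ replicate 1 (1.17, 0.0328), 2 (1.17, 0.027) or 3 (1.21, 0.0216). Set against WT, its log2 fold change was 1.40 ± 0.27 in pab1Δpbp1Δ and 0.23 ± 0.05 in pbp1Δ, both without overlap.

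Of the signalling members, TEC1, the transcription factor gene, had 100.1, 141.6 and 134.0 CPM in pab1Δpbp1Δ, against 182.4, 172.2 and 181.4 CPM in pbp1Δ and 184.8, 173.8 and 174.9 CPM in WT. All pab1Δpbp1Δ libraries lay below the others, while pbp1Δ and WT overlapped. Its log2 fold change of -0.51 ± 0.14 in pab1Δpbp1Δ against pbp1Δ missed the threshold (edgeR adjusted p = 0.0144), and passed it without pab1Δpbp1Δ replicate 1 (-0.38, adjusted p = 0.00224) or replicate 2 (-0.61, 0.00916). The value set against WT was -0.52 ± 0.14 in pab1Δpbp1Δ and 0.01 ± 0.05 in pbp1Δ.

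MSB2, the sensor gene, had 505.8, 658.1 and 554.3 CPM in pab1Δpbp1Δ, against 839.8, 764.3 and 752.9 CPM in pbp1Δ and 936.5, 814.2 and 877.3 CPM in WT. As for TEC1, pab1Δpbp1Δ lay below the other strains, which overlapped. Its log2 fold change was -0.46 ± 0.14 in pab1Δpbp1Δ against pbp1Δ (edgeR adjusted p = 0.0228, not past the threshold). Compared with WT it was -0.62 ± 0.13 in pab1Δpbp1Δ and -0.15 ± 0.07 in pbp1Δ.

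KSS1, the MAP kinase gene, had 45.4, 70.1 and 63.8 CPM in pab1Δpbp1Δ, against 50.6, 53.9 and 57.0 CPM in pbp1Δ and 55.0, 59.3 and 59.0 CPM in WT. The strains overlapped in every comparison. Its log2 fold change was 0.15 ± 0.16 (edgeR adjusted p = 0.453) in pab1Δpbp1Δ against pbp1Δ, and compared with WT it was 0.04 ± 0.16 in pab1Δpbp1Δ and -0.10 ± 0.06 in pbp1Δ. FUS1, the cell fusion gene, had 12.5, 31.1 and 21.8 CPM in pab1Δpbp1Δ, against 25.2, 26.3 and 24.4 CPM in pbp1Δ and 18.4, 20.3 and 18.1 CPM in WT. The pab1Δpbp1Δ libraries spanned both other strains, and every pbp1Δ library lay above every WT library. The log2 fold change of FUS1 was -0.22 ± 0.28 in pab1Δpbp1Δ against pbp1Δ (edgeR adjusted p = 0.535) and 0.06 without pab1Δpbp1Δ replicate 1. Compared with WT it was 0.19 ± 0.29 in pab1Δpbp1Δ and 0.42 ± 0.06 in pbp1Δ.

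**Figure D4:**
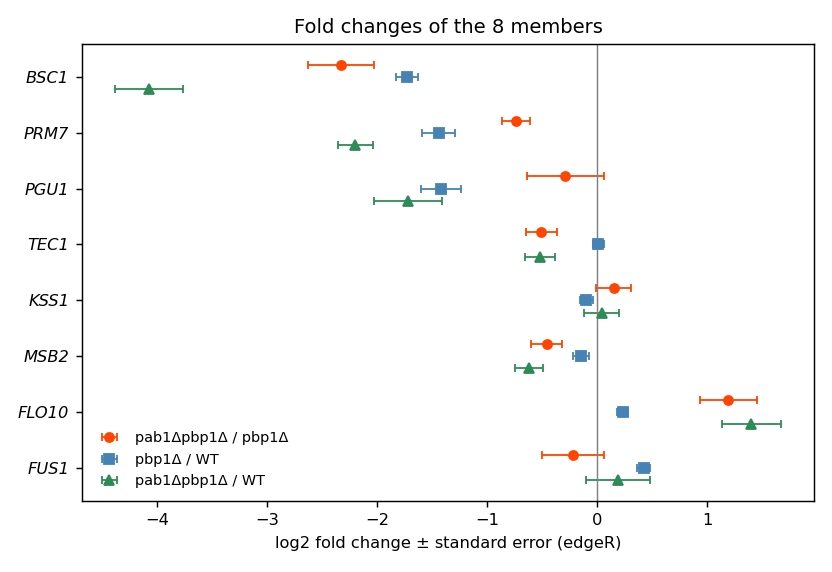
Log2 fold changes ± SE (edgeR) of the 8 members in the 3 comparisons, with a line at no change. BSC1 and PRM7 lie left of the line in all 3 comparisons, and the interval of FLO10 lies right of it, with its highest value of 1.40 in pab1Δpbp1Δ against WT.

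Replicates 1 to 3 of pab1Δpbp1Δ were not equally spread around these means. For 7 of the 8 members, all but PRM7, the lowest pab1Δpbp1Δ library was replicate 1, which was the lowest for 41.9% of all entries. Without it 4 members were called in pab1Δpbp1Δ against pbp1Δ, in a fit that called 3917 of all 6631 entries tested. Its part in the single values was not tested further. The coefficient of variation between pab1Δpbp1Δ libraries ran from 9.30% for PRM7 to 42.6% for FUS1, against 2.63% for FLO10 to 22.8% for PGU1 in pbp1Δ and 1.92% for FLO10 to 18.2% for PRM7 in WT. Libraries of 5 members did not overlap between pab1Δpbp1Δ and pbp1Δ, against 64.9% of all entries tested. Between pbp1Δ and WT the number was also 5 (42.1% of all entries), and between pab1Δpbp1Δ and WT it was 6 (69.7%), so that non-overlap alone sets no member apart.

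Ordered by FPKM, which divides by transcript length, the members spanned a wide range of levels in each strain. In pab1Δpbp1Δ the order was MSB2 (171.1 ± 28.1 FPKM), TEC1 (97.8 ± 21.4), KSS1 (60.8 ± 15.4), FLO10 (31.8 ± 12.9), FUS1 (16.3 ± 7.26), PRM7 (11.0 ± 1.34), BSC1 (2.47 ± 1.02) and PGU1 (0.770 ± 0.306; SD, n = 3 throughout). FLO10 and FUS1 overlapped there, as did FUS1 and PRM7. In pbp1Δ the order was MSB2 (184.5 ± 13.2), TEC1 (109.3 ± 5.89), KSS1 (42.8 ± 2.80), FUS1 (14.7 ± 0.254), PRM7 (14.5 ± 1.68), FLO10 (10.9 ± 0.471), BSC1 (9.62 ± 0.986) and PGU1 (0.737 ± 0.182). FUS1 and PRM7 overlapped, and the lowest FLO10 library equalled the highest BSC1 library at 10.42 FPKM. In WT it was MSB2 (196.9 ± 11.8), TEC1 (104.2 ± 3.08), KSS1 (44.1 ± 2.18), PRM7 (37.9 ± 7.22), BSC1 (30.7 ± 4.16), FUS1 (10.6 ± 0.821), FLO10 (8.91 ± 0.287) and PGU1 (1.88 ± 0.202). KSS1 overlapped PRM7 in WT, and PRM7 overlapped BSC1. MSB2, TEC1, KSS1 and PGU1 kept their places in the 3 strains, and BSC1 stood just above PGU1 in both mutants but above FUS1 and FLO10 in WT.

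The summed BSC1 and PRM7 level was compared with all other entries by Pearson's r of log2(CPM + 1) over the 9 libraries, as a description, since the libraries share strains. The most alike of 6407 entries were RSM23, a mitochondrial ribosomal protein gene (r = 0.991), NUP100, a nuclear pore gene (0.986), MAS2, a subunit of the mitochondrial processing peptidase (0.984), RMD9, a mitochondrial RNA-binding protein gene (0.984), and HRR25, a casein kinase gene (0.982). An r above 0.95 was reached by 63 entries (0.983%). RSM23 averaged 57.5 ± 2.02 CPM in pab1Δpbp1Δ, 70.7 ± 1.64 in pbp1Δ and 104.3 ± 3.48 in WT (SD, n = 3 each). A high r does not mean changes of like size. The log2 fold change of RSM23 was -0.30 in pab1Δpbp1Δ against pbp1Δ and -0.56 in pbp1Δ against WT, smaller than those of BSC1 and PRM7. Of the other members, MSB2 (0.803) and TEC1 (0.682) came before KSS1 (0.018), FUS1 (-0.182) and FLO10 (-0.78). PGU1 had 0.918, but it was chosen for the same low values in pbp1Δ against WT as the locus, so its likeness is partly set by that choice.

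Other genes of the filamentous growth and pheromone pathways were taken from 4 lists with 67 genes. The lists were chosen with earlier results of these data known, so their p-values are not those of genes picked without sight of the data. Of the 67 genes 66 were tested in pab1Δpbp1Δ against pbp1Δ. There 11 rose, 13 fell and 42 did not pass the threshold, again close to the 34.8% called among all entries, and their median log2 fold change was 0.04. Of the 12 genes of the MAP kinase cascade 2 fell and 10 did not pass (median -0.16). STE12, the partner of TEC1 and the main transcription factor of both pathways, had 96.5, 116.7 and 119.3 CPM in pab1Δpbp1Δ, against 168.2, 168.6 and 181.7 CPM in pbp1Δ, and fell by 0.64 ± 0.11 (edgeR adjusted p = 0.00232). DIG1, which encodes an inhibitor of Ste12, fell by 0.45 ± 0.09 (adjusted p = 0.00412). The libraries of both genes did not overlap between these strains. Both calls were lost without pbp1Δ replicate 1, 2 or 3 and under upper-quartile scaling, and that of DIG1 also without pab1Δpbp1Δ replicate 3. Without pab1Δpbp1Δ replicate 1 the cascade had 7 calls. For the 4 lists together, leaving out pbp1Δ replicate 1, 2 or 3 gave 9, 10 or 11 calls in place of 24, and leaving out pab1Δpbp1Δ replicate 1 or 3 gave 47 or 14. Over all entries the same fits gave 980, 860 or 980 calls in place of 2285, and 3917 or 1253.

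Of 17 other regulators tested in pab1Δpbp1Δ against pbp1Δ, 3 rose and 3 fell (median -0.02), near the 18.0% and 16.7% of all entries. XBP1, a stress-induced repressor gene, had 37.1, 60.01 and 45.6 CPM in pab1Δpbp1Δ, against 5.39, 4.93 and 4.73 CPM in pbp1Δ, and rose by 3.24 ± 0.19 (edgeR adjusted p = 4.46e-05). NRG1, a repressor gene of glucose-repressed and filamentous growth genes, rose by 1.62 ± 0.24 (adjusted p = 0.00124, or 0.0105 without pbp1Δ replicate 1). PHD1, an activator gene of filamentous growth, had 61.5, 77.0 and 64.4 CPM in pab1Δpbp1Δ, against 214.0, 216.0 and 221.0 CPM in pbp1Δ, and fell by 1.68 ± 0.11 (adjusted p = 7.31e-05). ASH1, a daughter-cell transcription factor gene needed for filamentous growth, fell by 0.84 ± 0.11 (adjusted p = 6.22e-04). The libraries of these 4 genes did not overlap between the strains. Leaving out pbp1Δ replicate 1 gave 3 calls in this list and leaving out pab1Δpbp1Δ replicate 1 gave 11.

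Of 8 further targets and flocculin genes 1 rose and 7 did not pass (median 0.51), where 34.8% of all entries were called. The riser was SVS1, a cell wall protein gene, by 1.08 ± 0.14 (edgeR adjusted p = 6.44e-04). FLO11, the main adhesin gene of filamentous growth, had 52.8, 86.7 and 80.1 CPM in pab1Δpbp1Δ, against 52.8, 54.1 and 57.2 CPM in pbp1Δ and 58.8, 57.4 and 57.1 CPM in WT. It was not called, and was picked out here for its place in the pathway. Without pab1Δpbp1Δ replicate 1, 6 of these 8 genes were called, as were 3917 of all 6631 entries. The flocculin genes FLO1, FLO5 and FLO9 are close copies of each other, so the split of reads between them is uncertain. Of 29 pheromone response genes 7 rose and 8 fell (median 0.05), where 18.0% of all entries were called higher and 16.7% lower. PRM2, a pheromone-regulated membrane protein gene, rose by 1.36 ± 0.31 (adjusted p = 0.00786), and PRM10 by 1.11 ± 0.19 (adjusted p = 0.00201). The PRM2 call held in 1 of the 6 fits that leave out 1 library, the one without pab1Δpbp1Δ replicate 1, and the PRM10 call was lost without pbp1Δ replicate 1 or 2. The list had 5, 5 and 6 calls without pbp1Δ replicate 1, 2 and 3, 23 without pab1Δpbp1Δ replicate 1 and 8 without its replicate 3. FAR1, the cell cycle inhibitor gene of the pheromone response, had 34.8, 47.2 and 42.8 CPM in pab1Δpbp1Δ, against 149.1, 172.0 and 158.7 CPM in pbp1Δ, and fell by 1.94 ± 0.14 (adjusted p = 8.03e-05). BAR1, the protease gene that degrades alpha-factor, fell by 1.87 ± 0.20 (adjusted p = 3.76e-04). Under upper-quartile scaling the median of all entries in this comparison was 0.21 in place of 0.03, so changes of that size depend on the scaling.

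In pbp1Δ against WT, where 11.6% of all 6425 entries were called, 4 of 65 genes of the 4 lists rose and 11 fell (median 0.01), against 5.34% higher and 6.24% lower among all entries (343 and 401, or 411 and 270 under upper-quartile scaling). These list calls were all lost with the 9 libraries in 1 edgeR fit, which left 18 calls over all entries. All genes named in this paragraph differed without overlap between the strains. The largest change was in HMS1, a transcription factor gene linked to pseudohyphal growth, with 6.10, 6.76 and 6.03 CPM in pbp1Δ against 16.7, 15.7 and 16.4 CPM in WT, a fall by 1.37 ± 0.07 (edgeR adjusted p = 6.78e-06). It was 1 of 5 regulators that fell among 17, none of which rose, and PHD1 was next with a fall by 0.58 ± 0.05 (adjusted p = 7.72e-05). In the MAP kinase cascade 1 of 12 genes was called, the kinase gene STE20, which fell by 0.26 ± 0.06 (adjusted p = 0.00895). That call was lost in all 6 fits that leave out 1 library, under upper-quartile scaling, and with edgeR or DESeq2 on all 9 libraries. Of 8 targets and flocculin genes 2 rose and 3 fell. DDR48, a stress protein gene also used as a marker of filamentous growth, fell by 0.68 ± 0.06 (adjusted p = 9.30e-05), and CLN1, a G1 cyclin gene, by 0.44 ± 0.07 (adjusted p = 0.00155). FLO1 and FLO5 rose by 0.40 ± 0.05 (adjusted p = 6.08e-04) and 0.24 ± 0.04 (adjusted p = 0.00427). The FLO5 call held in 1 of the 6 fits that leave out 1 library, the one without pbp1Δ replicate 1, and without pbp1Δ replicate 2 this list had 2 calls, that of CLN1 being among those lost.

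Of 28 pheromone response genes tested in pbp1Δ against WT, 2 rose and 2 fell, where 5.34% of all entries were called higher and 6.24% lower. ASG7, an a-cell gene, rose by 0.70 ± 0.10 (edgeR adjusted p = 0.00139) and CIK1, a kinesin partner used in nuclear fusion, by 0.23 ± 0.05 (adjusted p = 0.0058). FAR1 fell by 0.30 ± 0.06 (adjusted p = 0.00895), as did FUS3, the mating MAP kinase gene, by 0.29 ± 0.05 (adjusted p = 0.00357). The CIK1 call was lost in all 6 fits that leave out 1 library, and those of FAR1 and FUS3 without pbp1Δ replicate 3 or WT replicate 2 or 3. The list had 2 calls without pbp1Δ replicate 3 and 1 without WT replicate 2 or 3, and FAR1 was not called under upper-quartile scaling.

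**Figure D5:**
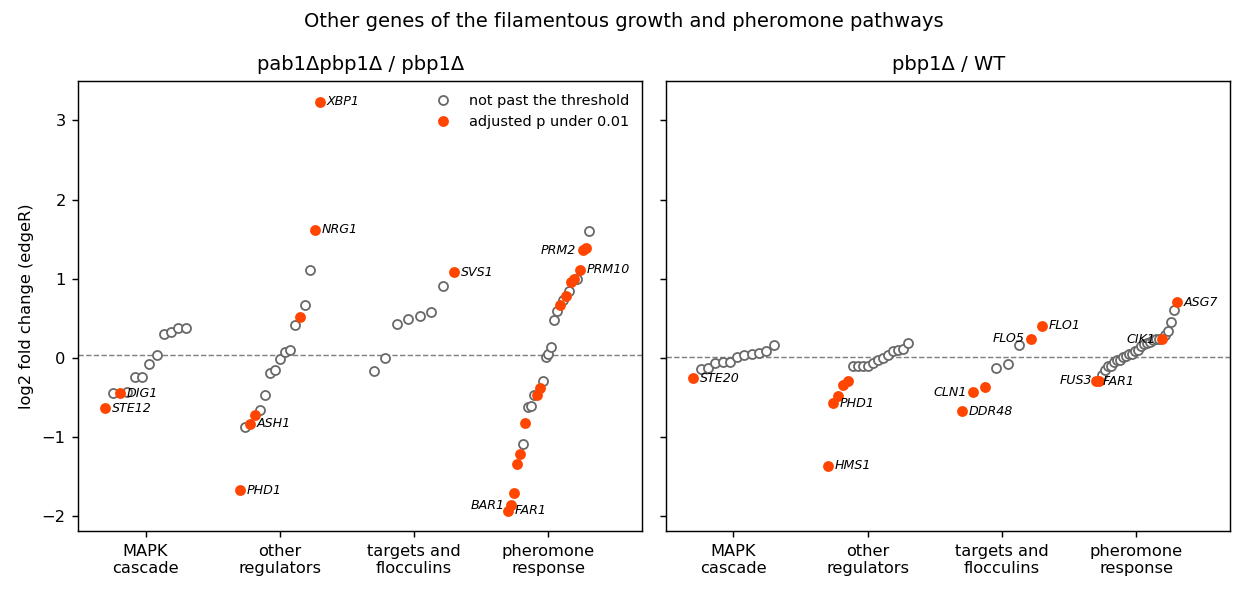
Log2 fold changes (edgeR) of the genes of the 4 lists other than the members, sorted within each list, for pab1Δpbp1Δ against pbp1Δ (left) and pbp1Δ against WT (right). Filled points passed an adjusted p-value of 0.01, open points did not, the dashed line is the median of all entries tested (0.03 and 0.01) and the named genes are marked. The spread is wider on the left, up to 3.24 for XBP1, and HMS1 at -1.37 stands lowest on the right.

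In pab1Δpbp1Δ against WT, which shares its libraries with both other comparisons, 13 of 66 list genes rose and 18 fell (median 0.06), against 43.4% called among all entries (21.8% higher and 21.6% lower, or 2086 and 837 entries under upper-quartile scaling in place of 1428 and 1417). Leaving out WT replicate 1, 2 or 3 gave 16, 17 or 14 list calls in place of 31, and leaving out pab1Δpbp1Δ replicate 1 gave 49. Over all entries the same fits gave 1535, 1586 or 1387 calls in place of 2845, and 4195. In the cascade OPY2, a membrane anchor gene of the pathway, rose by 0.52 ± 0.12 (edgeR adjusted p = 0.00662), while STE12 fell by 0.70 ± 0.10 (0.00101) and STE20 by 0.53 ± 0.11 (0.00488). Among regulators XBP1 and NRG1 rose by 2.75 ± 0.19 and 1.64 ± 0.25 (adjusted p = 9.09e-05 and 0.00118), and PHD1 and HMS1 fell by 2.28 ± 0.11 and 2.27 ± 0.29 (4.12e-05 and 5.38e-04). Among targets FLO5 and SVS1 rose by 1.13 ± 0.23 and 0.93 ± 0.14 (0.00428 and 0.00105) and CLN1 fell by 0.63 ± 0.12 (0.00292). Among pheromone response genes PRM2 and PRM5 rose by 1.57 ± 0.31 and 1.24 ± 0.20 (0.0035 and 0.00166), and FAR1 and MFA1, an a-factor gene, fell by 2.26 ± 0.13 and 1.71 ± 0.31 (5.59e-05 and 0.00271). Each strain pair named here was free of overlap. The calls of OPY2, STE20, FLO5, PRM2 and MFA1 were lost without pab1Δpbp1Δ replicate 3. They were also lost without WT replicate 1 or 3 and, except for MFA1, without WT replicate 2. The CLN1 call was lost without any 1 WT replicate and that of PRM5 without WT replicate 3. Upper-quartile scaling ended the calls of STE20 and CLN1.

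The 5 other genes named for stop codon bypass, BSC2 to BSC6, were compared with BSC1. In pab1Δpbp1Δ against pbp1Δ 3 of them rose and 2 did not pass, where 18.0% of all entries were called higher. Of these calls, those of BSC3 and BSC5 were lost without any 1 pbp1Δ replicate and without pab1Δpbp1Δ replicate 3, so that only BSC4 was called in all 6 fits that leave out 1 library. BSC4 had 4.55, 22.2 and 14.0 CPM in pab1Δpbp1Δ, against 0.48, 0.58 and 0.48 CPM in pbp1Δ and 0.38, 0.35 and 0.31 CPM in WT, and rose by 4.73 ± 0.57 against pbp1Δ (edgeR adjusted p = 5.26e-04). BSC5 had 17.1, 49.5 and 29.8 CPM in pab1Δpbp1Δ, against 9.37, 8.54 and 8.60 CPM in pbp1Δ and 9.31, 9.94 and 9.44 CPM in WT, and rose by 1.86 ± 0.34 (adjusted p = 0.00279). Both were lowest in pab1Δpbp1Δ replicate 1, which still lay above all pbp1Δ and WT libraries. Against WT the rises in pab1Δpbp1Δ were 5.27 ± 0.61 for BSC4 (adjusted p = 3.97e-04) and 1.74 ± 0.34 for BSC5 (adjusted p = 0.00388, lost without any 1 WT replicate and without pab1Δpbp1Δ replicate 3). In pbp1Δ against WT edgeR called 0 of the 5, where 11.6% of all entries were called, with 1 at an unadjusted p under 0.05. DESeq2 on the same libraries also called 0.

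Because the pheromone response list holds a-specific genes such as ASG7 and MFA1, the markers of mating type were summed. The 7 a-specific genes summed to 783.3 to 1179 CPM in pab1Δpbp1Δ, against 1871 to 1977 in pbp1Δ and 1858 to 1904 in WT. Of these 7 genes 4 fell in pab1Δpbp1Δ against pbp1Δ and 3 were not called, where 16.7% of all entries were called lower. The 4 alpha-specific genes summed to 108.7 to 231.9 CPM in pab1Δpbp1Δ, against 60.8 to 64.2 in pbp1Δ and 52.5 to 56.7 in WT, most of it from SAG1, the alpha-agglutinin gene. Of these 4 genes 3 rose in pab1Δpbp1Δ against pbp1Δ, where 18.0% of all entries were called higher. STE3, the a-factor receptor gene of alpha cells, had 13.0, 14.6 and 15.1 CPM in pab1Δpbp1Δ, against 3.32, 3.31 and 3.08 CPM in pbp1Δ and 1.82, 1.23 and 1.38 CPM in WT. It rose by 2.14 ± 0.14 in pab1Δpbp1Δ against pbp1Δ (edgeR adjusted p = 7.05e-05), by 3.26 ± 0.19 in pab1Δpbp1Δ against WT and by 1.14 ± 0.15 in pbp1Δ against WT (adjusted p = 0.001, a call lost with all 9 libraries in 1 edgeR fit). The alpha-factor gene MF(ALPHA)1 rose by 2.05 ± 0.28 in pab1Δpbp1Δ against pbp1Δ (adjusted p = 8.59e-04), at 1.20 to 1.83 CPM in pab1Δpbp1Δ, against 0.32 to 0.41 in pbp1Δ and 0.23 to 0.31 in WT. SAG1 rose by 1.55 ± 0.28 (adjusted p = 0.00269), a call lost without any 1 pbp1Δ replicate and without pab1Δpbp1Δ replicate 3. MF(ALPHA)2 did not pass (adjusted p = 0.554) and had at most 0.301 CPM in any library. The 6 haploid-specific genes summed to 360.2 to 410.1 CPM in pab1Δpbp1Δ, against 561.9 to 599.0 in pbp1Δ and 610.0 to 647.2 in WT. They did not all move with the sum in pab1Δpbp1Δ against pbp1Δ. There 4 of the 6 fell, where 16.7% of all entries were called lower. STE5 was not called (-0.01 ± 0.12), and STE18 rose by 1.13 ± 0.13 (edgeR adjusted p = 4.95e-04). The a-specific sum exceeded the alpha-specific sum in every library, while pab1Δpbp1Δ libraries had lower a-specific and haploid-specific sums and a higher alpha-specific sum than the other strains. The part of these markers in the values of FUS1, PRM7 and the pheromone response genes was not tested.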

How the data were processed

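RNA-Seq libraries of 3 strains, 3 replicates each, were used. The expected counts and FPKM were deposited by the authors, who aligned single-end reads to a laboratory yeast transcriptome based on R64 with RSEM 1.3.0 and Bowtie 1.0.0. The libraries were made with a stranded kit after rRNA depletion. Rounded counts entered edgeR 4.0.16, run under R 4.3.3 (TMM, filterByExpr with a minimum count of 10, robust quasi-likelihood test, Benjamini-Hochberg adjustment over all entries) on the 6 libraries of each pair of strains. CPM were scaled with TMM factors over all 9 libraries, and FPKM were used as deposited. Replicate numbers were taken from the labels, and SD are over 3 libraries.

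The members and gene lists were chosen with earlier results of these data known. All members were named, with PAB1, PBP1, the 6 neighbours, the 5 entries most alike the locus and, from each list and comparison, up to 2 of the largest rises and falls among called genes with a mean of at least 50 normalized counts and no overlap. Alternatives were RLE and upper-quartile scaling, other count filters, all 9 libraries in 1 fit, the table per locus, a replicate block, DESeq2 1.42.0, a threshold of 0.05, and leaving out each library. Promoter windows and coordinates came from the RefSeq R64 genome, in which 8 genes matched, read with Biopython 1.88. No spike-in entered the scaling, so levels are relative to the mRNA pool.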

Additional observations from a re-analysis of the deposited data

How the results depend on the processing

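The call of BSC1 in pab1Δpbp1Δ against pbp1Δ held under all 15 alternatives (-2.54 to -2.04), that of PRM7 under 13 and that of FLO10 under 10. TEC1 passed under 5 and MSB2 under 3, while PGU1, KSS1 and FUS1 passed under none. The number of members called was 5, in place of 3, with all 9 libraries in the edgeR fit, with DESeq2 on the pair or on all 9 libraries, and at a threshold of 0.05, and 1 to 4 when 1 library was left out. Calls over all entries rose as well under the settings with 5, to 3120, 3116, 3654 and 3595 in that order, from 2285. The log2 fold change of FUS1 ran from -0.56, without pab1Δpbp1Δ replicate 2, to 0.06, without replicate 1. The 4 lists gave 24 calls in this comparison, 43 with DESeq2 on all 9 libraries, 44 at 0.05 and 9 to 47 with 1 library left out. In pbp1Δ against WT they gave 15 calls, 5 with DESeq2 on all 9 libraries, 0 with edgeR on all 9 (15 at an unadjusted p under 0.05) and 9 to 13 with 1 left out. In pab1Δpbp1Δ against WT the 31 calls became 14 to 49. Over all entries, the 2285 calls in pab1Δpbp1Δ against pbp1Δ became 3654 with DESeq2 on all 9 libraries, 3595 at 0.05 and 860 to 3917 with 1 left out. The 744 calls in pbp1Δ against WT became 18 with edgeR on all 9 libraries, 1164 and 238 with DESeq2 on the pair and on all 9, 1563 at 0.05 and 326 to 695 with 1 left out. The 2845 calls in pab1Δpbp1Δ against WT became 1387 to 4195. With 1 library left out fewer samples enter each fit, and the causes of the other moves were not tested.

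Correlations of same-numbered deviations from the strain means lay between -0.079 and 0.21 over the 3 comparisons, the highest being replicate 1 in pbp1Δ against WT. Whether libraries of the same number were handled together was not tested. With the number as a replicate block the 3 members called in pab1Δpbp1Δ against pbp1Δ stayed 3. The calls over all entries in pbp1Δ against WT became 1448 in place of 744. In pab1Δpbp1Δ against pbp1Δ they became 2153 in place of 2285. The log2 BSC1 to PRM7 ratio kept its sign with counts, with the table per locus and without any 1 library (-1.96 to -1.28, -0.33 to -0.25 and -2.26 to -1.58 in the 3 comparisons).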
